A study of Mus musculus with 3 samples.

Results

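Strong, moderately broad peaks of histone H3 trimethylated at lysine 4 (H3K4me3) that held no peak of the retinoic acid receptor beta (RARβ) were examined in the caudate putamen of the mouse, which forms the dorsal striatum. Members were the peaks of the deposited H3K4me3 list with at least 1000 sequence tags and a width from 3000 to under 8000 bp that shared no base with any peak of the deposited RARβ list. There were 4427 of them, among 6118 H3K4me3 peaks within these limits and 35971 H3K4me3 peaks in all. The other 1691 peaks within the limits held a RARβ peak and served for comparison. H3K4me3 tags, H3K4me3 width and RARβ overlap therefore chose the members, and values of these lists are given as descriptions, with no test.

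Chromatin immunoprecipitation followed by sequencing (ChIP-seq) had been done with 1 library per antibody, against RARβ, H3K4me3 and GFP. All 3 came from wild type male mice of a C57BL/6J x 129SvEms/j background, with no treatment named in the labels, and their age and number are not given in the sources used here. The labels name the tissue and no sorting of cells, so the lists can combine neurons, glia and vessels. The library made with the GFP antibody was not analysed here. Peaks of both lists were called against 1 control library whose antibody the file headers do not name, so what the fold enrichment is relative to is known only as that control. With 1 library per antibody no value has a replicate error, and the 95% intervals (Wilson for shares, exact Poisson for numbers of tags and peaks, order statistics for medians) cover counting error only.

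RARβ is a nuclear receptor that pairs with a retinoid X receptor on DNA response elements and switches target genes on when it binds retinoic acid. It is the retinoic acid receptor best known from the striatum, where medium spiny neurons express it. H3K4me3 is written by the SET1 and MLL methyltransferase complexes on nucleosomes around the start sites of active genes, mostly at CpG islands. Members are called peaks and not promoters below, because an annotation of the mouse build of the files was not used here, and neither genes nor sequences could be tied to them.

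The members took up 19.1 Mb and held 7926711 H3K4me3 tags, 34.7% of all tags in H3K4me3 peaks. The H3K4me3 library had 47461843 tags after removal of duplicates, against 2237580 in the RARβ library. No RARβ peak had fewer than 7 tags, so a receptor site with fewer tags was not detectable at this depth, and a member is a peak without a called RARβ site and not one shown to be free of the receptor. Of the 1691 RARβ-holding peaks, 223 (13.2%) had only a RARβ peak of 7 tags, and 602 (35.6%) had none above 9 tags. One RARβ peak was present in 1502 of them, 2 in 170, and 3 or more in 19, and the median number of tags of the strongest one was 11 (quartiles 8 and 16).

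Most strong H3K4me3 peaks held no RARβ peak, yet they lacked one less often than the list as a whole. The share without RARβ was 72.4% within the limits (95% interval 71.2 to 73.5), 86.9% over all H3K4me3 peaks and 89.9% over the 29853 peaks outside the limits. Conversely, a RARβ peak was found in 27.6% of the strong peaks and in 13.1% of the whole list. When only RARβ peaks of 10 or more tags were counted, 82.2% of the strong peaks lacked one.

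The share without RARβ was lower the more H3K4me3 tags a peak had. It was 81.9% at 1000 to under 1500 tags (1520 of 1856 peaks), 74.5% at 1500 to under 2000, 63.9% at 2000 to under 3000 and 49.4% at 3000 to under 4000 (95% interval 44.2 to 54.6). Among the 40 peaks with 4000 or more tags, 17 lacked RARβ, a share of 42.5% (28.5 to 57.8). These steps lie outside each other's intervals except for the last.

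By width alone the share was also lower in wider peaks, at 76.8% for 3000 to under 4000 bp and 52.4% at 7000 to under 8000 bp (46.2 to 58.4). Within the classes of tags below 3000, however, the share differed little between widths. At 2000 to under 3000 tags the share without RARβ was 64.7% for peaks of 3000 to under 4000 bp. It was 64.3% at 5000 to under 6000 bp and 59.6% at 7000 to under 8000 bp, with an interval of 49.5 to 68.9 for the widest. At 1000 to under 1500 tags it was 81.4% in the narrowest class and 88.2% at 5000 to under 6000 bp (81.7 to 92.6). Within the narrowest class of width, by contrast, it went from 81.4% to 73.9% and 64.7% over the first 3 classes of tags. At 3000 to under 4000 tags wider peaks had lower values, with 61.4% (50.7 to 71.2) at 5000 to under 6000 bp, 47.1% at 6000 to under 7000 bp and 44 of 100 peaks (34.7% to 53.8%) at 7000 to under 8000 bp, though these intervals overlap. With RARβ peaks of 10 or more tags the share in the narrowest class of width was 89.5% for the lowest tags and 75.5% for 2000 to under 3000 tags. At 2000 to under 3000 tags it was then 77.7% at 5000 to under 6000 bp and 73.4% at 7000 to under 8000 bp.

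**Figure D1:**
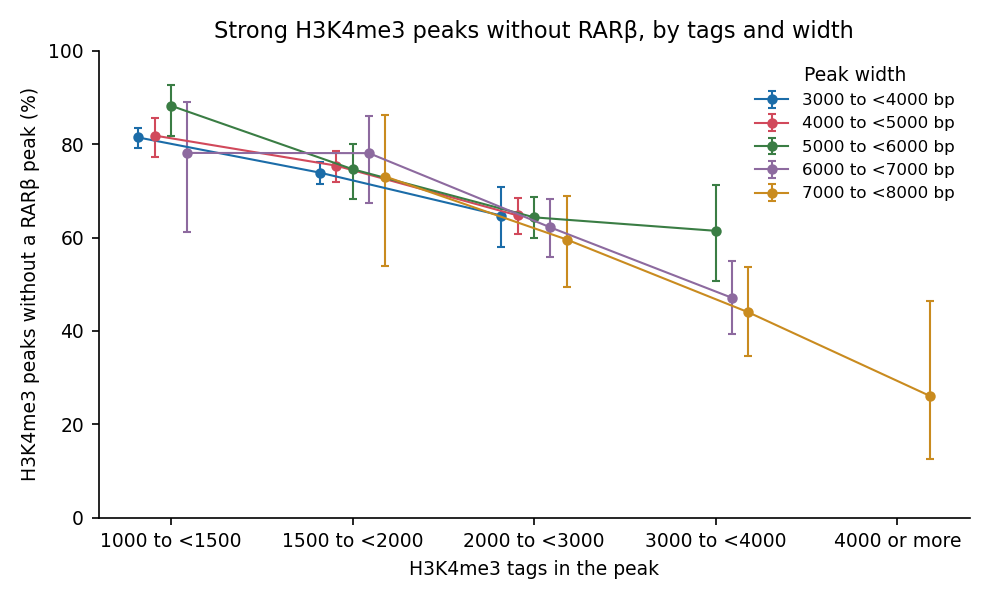
Share of strong H3K4me3 peaks without a RARβ peak (vertical axis, percent) by class of H3K4me3 tags (horizontal axis), with 1 line per class of width and Wilson 95% intervals as bars; classes of under 20 peaks are left out. The lines of different widths lie close together up to 3000 tags and come down together from left to right, from 81.4% to 64.7% for the narrowest peaks.

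Per length and with all tags pooled, RARβ summits were about as dense in narrow as in wide strong peaks. There were 70.0 summits per Mb (64.9 to 75.3) at 3000 to under 4000 bp and 78.7 per Mb (66.5 to 92.4) at 7000 to under 8000 bp, and these intervals overlap. Wider peaks also had more tags, and the density was not computed within classes of tags. It therefore does not show how RARβ summits went with width at like tags. Whether chromatin rich in H3K4me3 tags enters the RARβ library for reasons other than the receptor was not tested.

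The members varied in form among themselves. Their median width was 3984 bp (quartiles 3421 and 4948), their median tag number 1670 (1388 and 2049) and their tag density 424 tags per kb (355 and 490). Members were divided into 4 groups of equal size by width. They had a median of 1427 tags in the narrowest group and 2271 in the widest, while the density was 446 and 391 tags per kb. The H3K4me3 summit was central in narrow members and off centre in wide ones. It lay in the middle 20% of the peak in 54.7% of the narrowest group and in 17.3% of the widest, and its median offset from the centre was 18.1% and 43.2% of the distance from centre to edge.

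Fold enrichment, which the caller computes as summit pileup over local background, ran from 4.34 to 61.46 among the members with a median of 26.63. It was almost unrelated to the number of tags (Spearman's rho -0.02, Pearson's r -0.04 over 4427 peaks of 1 library) and to the tags per kb (rho 0.02, r 0.03). The local background comes from a control of 3703580 filtered tags that was scaled up to an H3K4me3 library 12.8 times as large, so few control tags set it. The score and the empirical FDR did not separate the members, since 4315 shared a score of 3100 and 4316 an FDR of 3.36%. An FDR above 5% was given to 57 members (1.29%), whose median fold was 9.14 at a median width of 4663 bp.

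The member richest in tags, in build mm9, spanned 39819791 to 39826916 of chromosome 6. It was 7126 bp wide and had 4579 H3K4me3 tags (Poisson 95% interval 4447 to 4714) with a fold enrichment of 19.98, and the nearest RARβ peak, of 20 tags, was 58.7 kb away inside another H3K4me3 peak. The RARβ-holding peak closest to it in width and tags was on chromosome 10 at 17440956 to 17448148. That peak had a width of 7193 bp, 4187 tags and a fold of 19.25, and it held a RARβ peak of 24 tags at 17442616 to 17443681, with its summit 441 bp below the H3K4me3 summit. These peaks were close in width and fold, but the member had more tags, since the interval of the counterpart was 4061 to 4316. The counterpart also held a RARβ peak well above the detection minimum.

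The next 2 members by tags had tag numbers whose Poisson intervals overlap those of their counterparts. A member spanning 58217395 to 58224999 of chromosome 3 had 4509 tags, a fold of 17.43 and its nearest RARβ peak 271 kb away. Its counterpart, spanning 56918752 to 56926336 of chromosome 9, had 4666 tags, a fold of 12.83 and a RARβ peak of 9 tags. A member spanning 110925522 to 110933209 of chromosome 11 had 4500 tags over 7688 bp and a fold of 28.70. Its counterpart, spanning 8661567 to 8669249 of chromosome 3, had 4636 tags over 7683 bp, a fold of 25.65, and RARβ peaks of 7 and 9 tags. In these 2 counterparts the RARβ peaks had 7 to 9 tags, at or just above the fewest in the list.

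Of the other pairs, the member on chromosome 13 at 44824445 to 44831033 (4344 tags, fold 24.97) was set beside a peak on chromosome 15 at 81685119 to 81691736 (4029 tags, fold 13.51) with a RARβ peak of 18 tags. The member on chromosome 5 at 143721322 to 143727378 (4275 tags, fold 31.80) was set beside a peak on chromosome 16 at 74407775 to 74413862 (3827 tags, fold 13.27). The latter held RARβ peaks of 8 and 22 tags, the stronger with its summit 34 bp from the H3K4me3 summit. In all 5 pairs the member had the higher H3K4me3 fold, but these members were picked for having the most tags. In the pairs on chromosomes 13 and 15 and on chromosomes 5 and 16 the member also had more tags, with Poisson intervals that do not overlap. Over 1675 pairs matched by width and tags the fold went the other way, higher in the member in 711 and lower in 961. The 10 members with the most tags had 4098 to 4579 tags and folds of 17.43 to 31.80, and their nearest RARβ peaks lay 11.2 to 591 kb away. Of these 10 nearest RARβ peaks, 3 lay in an H3K4me3 peak.

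At the limits of the selection, values inside and outside overlapped. Members of 1000 to under 1100 tags (219 peaks) had a median fold of 26.34, and 187 peaks of the same widths with 900 to under 1000 tags and no RARβ had one of 22.36, with quartiles of 18.2 to 35.1 and 15.1 to 30.7. The narrowest members, on chromosomes 1 and 7, were 3000 bp wide with 1305 and 1564 tags, and the widest peaks just below the limit, on chromosomes 1 and 9, were 2999 bp wide with 1299 and 1710 tags. The widest members had 7982 and 7973 bp with 2100 and 3676 tags, and the next wider peaks without RARβ had 8015 and 8018 bp with 3135 and 2908 tags. Just above and just below the tag limit stood pairs of peaks with 1000 and 999 tags, whose folds of 10.40 and 29.95 above and 16.39 and 31.34 below overlap.

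Members and RARβ-holding peaks were compared after a match by width and tags. Classes of 500 bp of width by the 5 classes of tags gave 42 classes that held both kinds, with 4424 members and all 1691 RARβ-holding peaks, which were weighted to the members' numbers in each class. After the match the median width was 3984 bp in members and 3989 bp in RARβ-holding peaks, and the median tag number 1669 and 1695. Tag density is tags over width, so the match itself brought it close. It was 424 (420 to 427) and 429 tags per kb (422 to 435). Before the match it was 424 (420 to 427) in members and 457 (451 to 462) in RARβ-holding peaks. The position of the summit was also similar, with a median offset of 27.8% (27.0 to 28.8) and 27.0% (25.4 to 28.3) of the distance from centre to edge.

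H3K4me3 fold enrichment was lower in members, with a median of 26.63 (26.24 to 27.02) against 30.38 (29.10 to 31.73) in matched RARβ-holding peaks. A fold of 40 or more was found in 16.8% of the members and 24.6% of the matched peaks. In 1675 pairs matched 1 to 1, the member had the higher fold in 711 and the lower in 961.

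This difference came with the weakest RARβ peaks. Matched peaks whose strongest RARβ peak had 7 tags had a median H3K4me3 fold of 35.09 (33.68 to 37.33), and those with 8 to 9 tags one of 33.81 (31.71 to 35.77). With 10 to 14 RARβ tags the median was 28.35 (26.89 to 29.79). With 15 or more it was 26.92 (24.63 to 28.88). Both intervals overlap that of the members. Tags per kb were 433, 422, 430 and 432 in the same 4 classes, but the weighting by width and tags holds them nearly fixed. When only RARβ peaks of 10 or more tags were counted, so that peaks with weaker ones became members, the medians were 27.31 and 27.70. One control library served for both lists, so its local background enters the H3K4me3 fold as well as the call of a weak RARβ peak. The part of that shared background in the difference was not tested. The split by RARβ tags was chosen after the values had been seen.

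**Figure D2:**
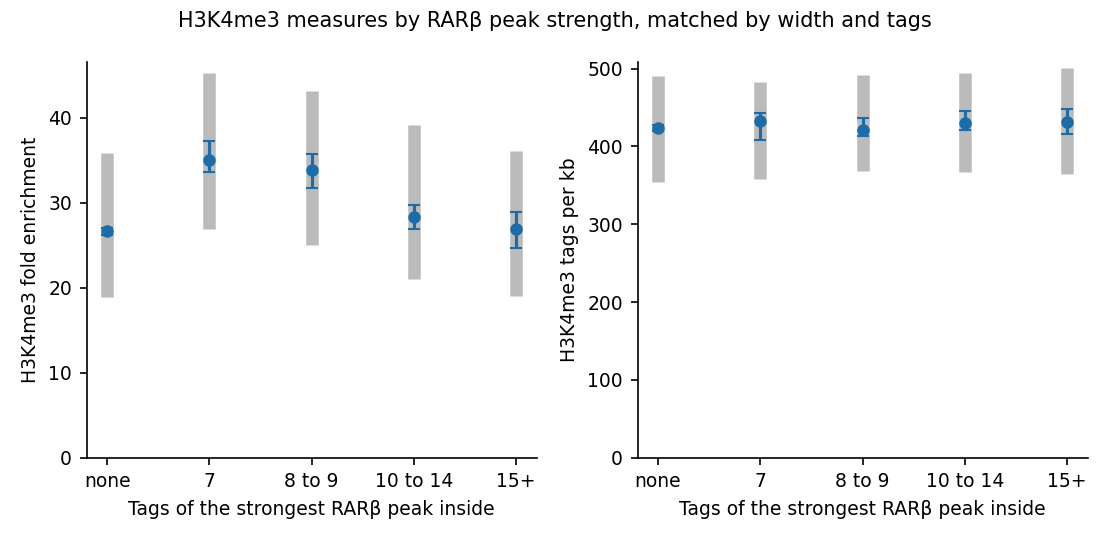
Median H3K4me3 fold enrichment (left) and H3K4me3 tags per kb (right) in strong H3K4me3 peaks by the number of tags of the strongest RARβ peak inside, where none stands for the members; points are medians weighted to the members' width and tags, thin bars their 95% intervals and grey bars the quartiles. The fold is highest at 7 RARβ tags (35.09) and comes down to 26.92 at 15 or more, near the members' 26.63. The tags per kb lie between 422 and 433 in the RARβ-holding classes, where the weighting by width and tags holds them nearly fixed.

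Members lay farther from other strong peaks than their matched counterparts did. The nearest other strong peak was at a median of 85.6 kb (80.0 to 90.5) from members and 67.3 kb (61.4 to 74.0) from matched RARβ-holding peaks. In the 1675 pairs matched 1 to 1, this distance was larger for the member in 909 and smaller in 766. Within 50 kb, counted from centre to centre, members had a median of 2 other H3K4me3 peaks, and matched peaks had 3 (2 to 3). The nearest other H3K4me3 peak was at a median of 12.8 kb (12.2 to 13.5) from members and 11.5 kb (10.4 to 12.5) from matched peaks, and these intervals overlap. Counting only H3K4me3 peaks whose FDR did not exceed 5%, the medians were 43.3 kb (41.1 to 45.3) and 34.7 kb (31.3 to 38.4), which do not overlap, and the median number within 50 kb was 1 for both. From centre to centre, no other H3K4me3 peak lay within 50 kb of 15.6% of the members and 14.4% of the matched peaks.

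The nearest RARβ peak was at a median of 77.7 kb from the edge of a member (74.3 to 81.4), with quartiles of 30.5 and 189 kb. It lay within 5 kb of 203 members (4.59%), within 10 kb of 9.46%, within 100 kb of 57.8% and within 1000 kb of 97.1%. For matched RARβ-holding peaks the nearest RARβ peak outside the peak was closer, at a median of 58.8 kb (53.8 to 66.6), and within 10 kb of 13.1%. On autosomes alone the medians were 74.95 kb and 58.1 kb. With RARβ peaks of 10 or more tags they were 143 kb and 105 kb.

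**Figure D3:**
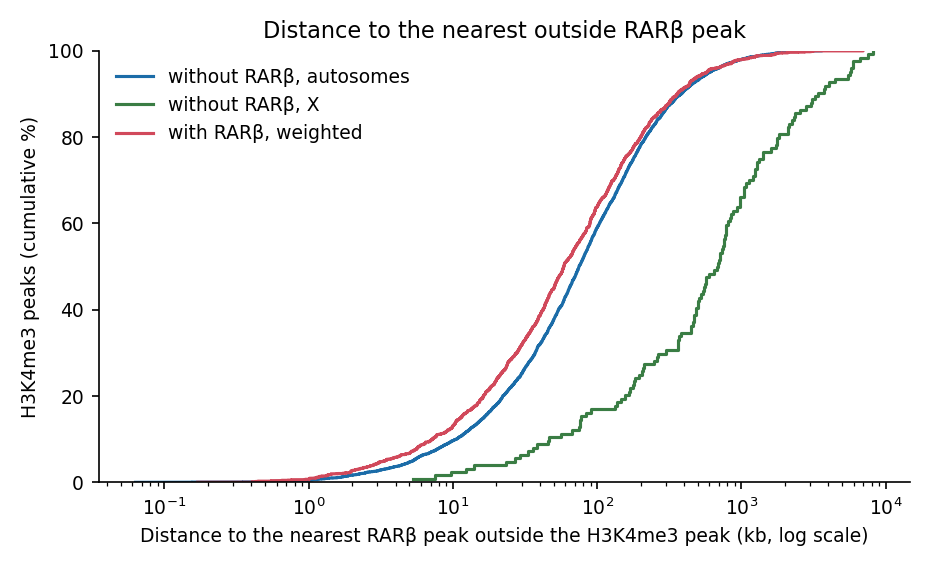
Cumulative share of strong H3K4me3 peaks (vertical axis, percent) by distance to the nearest RARβ peak outside them (horizontal axis, kb, log scale), for members on autosomes, members on X and RARβ-holding peaks weighted to the members' width and tags. The curve of the RARβ-holding peaks, with those on X included, runs to the left of that of autosomal members (medians 58.8 and 74.95 kb). On autosomes alone the median of the RARβ-holding peaks was 58.1 kb. The curve of X members runs far to the right (median 681 kb).

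The flanks of members held fewer RARβ summits than those of their matched counterparts, and more than the genome on average. At 1 to 5 kb from the edge there were 5.31 summits per Mb beside members (4.58 to 6.13) and 8.88 per Mb beside matched RARβ-holding peaks (7.35 to 10.6). At 10 to 50 kb the values were 6.06 and 8.11 per Mb, and at 100 to 500 kb 5.57 and 6.14 per Mb. The mean over the effective genome was 4.32 per Mb. Within 1 kb both were low, at 1.24 and 1.50 per Mb, where a RARβ peak that reaches the H3K4me3 peak counts as held and is left out. A RARβ summit can be counted beside several H3K4me3 peaks, so the intervals are too narrow. The match did not cover the number of neighbouring H3K4me3 peaks. Among members, more such peaks within 50 kb went with a shorter distance to RARβ (Spearman's rho -0.45, Pearson's r -0.24). The part of these neighbours in the differences of flanks and distance was not tested.

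**Figure D4:**
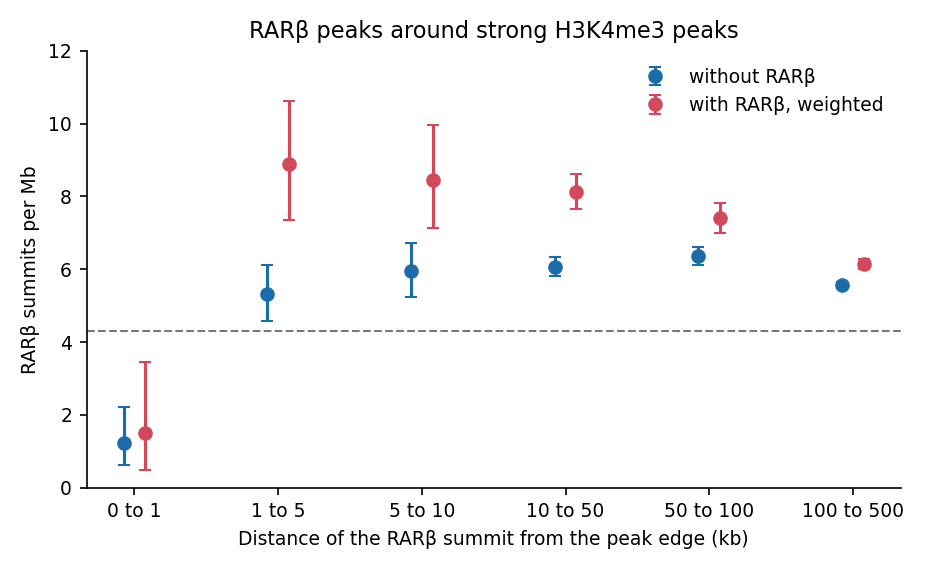
RARβ summits per Mb (vertical axis) in 6 ranges of distance from the edge of strong H3K4me3 peaks (horizontal axis, kb), for members and for RARβ-holding peaks weighted to their width and tags, with Poisson 95% intervals; the dashed line is the mean over the effective genome, 4.32 per Mb. From 1 kb outward the RARβ-holding peaks have the higher values, and the gap narrows from 8.88 against 5.31 to 6.14 against 5.57.

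The RARβ peaks nearest to members resembled the RARβ list. They had a median of 10 tags, as all RARβ peaks did, and 68.6% of the members had a nearest RARβ peak that lay in another H3K4me3 peak (67.2 to 70.0), against 64.9% of the RARβ list. For 38.2% that other H3K4me3 peak had 1000 or more tags. The 4427 members shared 2797 nearest RARβ peaks, so the interval of the 68.6% is too narrow.

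Some members lay right beside a RARβ peak. On chromosome 1, the member at 167570887 to 167574158 (1784 tags, fold 28.77) was 63 bp from a RARβ peak of 8 tags at 167574222 to 167574829. On chromosome 5, the member at 137519570 to 137522810 (1240 tags, fold 26.14) was 109 bp from one of 8 tags, and on chromosome 8, that at 98238671 to 98241835 (1301 tags, fold 18.81) was 156 bp from one of 7 tags. The 10 nearest members lay 63 to 562 bp from RARβ peaks of 7 to 21 tags. The strongest of these RARβ peaks, with 21 tags on chromosome 4 at 131632651 to 131633760, was 562 bp from the member at 131628832 to 131632088 and overlapped a separate H3K4me3 peak of 153 tags. Only 23 members had a RARβ peak within 1 kb, and in 8 of these it lay in a neighbouring H3K4me3 peak. Requiring that no RARβ peak lie within 1 kb left the share of strong peaks without one within its 95% interval.

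All 10 members farthest from RARβ were on the X chromosome, 4059 to 8169 kb away. The farthest, at 165109624 to 165113030, was 3407 bp wide with 1531 tags and a fold of 37.04. For 7 of these 10 the nearest RARβ peak was the same one, of 10 tags at 156940106 to 156940778. Among autosomal members, chosen for naming after the values were seen, the farthest lay on chromosome 13 at 3535938 to 3540226, 3623 kb from a RARβ peak, with 2145 tags and a fold of 27.21.

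Members were found on every autosome and on X, from 124 on X to 353 on chromosome 11. The 6 H3K4me3 peaks on Y were outside the limits. On autosomes 72.0% of the strong peaks lacked RARβ (70.9 to 73.2). Single autosomes ran from 66.8% on chromosome 10 (61.4 to 71.8) to 76.9% on chromosome 3 (71.9 to 81.3), and for 18 of the 19 autosomes the interval held the autosomal value. The exception was chromosome 10, whose upper bound lay just below it.

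On X, 124 of 144 strong peaks lacked RARβ, a share of 86.1% (79.5 to 90.8). The same held for H3K4me3 peaks of any strength, of which 95.6% lacked RARβ on X and 86.7% on autosomes, so the higher share was not particular to strong peaks. X members had fewer tags, with a median of 1278.5 against 1677 on autosomes, and a similar width and fold (3972 bp and 28.07 against 3984 bp and 26.63). From the autosomal shares for the same width and tags, 31.4 RARβ-holding peaks would be found among the strong peaks of X. There were 20, a ratio of 0.637 (Poisson 95% interval 0.389 to 0.984). At 1000 to under 1500 tags the share without RARβ was 86.7% on X (78.6 to 92.1) and 81.6% on autosomes. At 1500 to under 2000 tags it was 96.4% on X (27 of 28 peaks, 82.3 to 99.4) and 74.2% on autosomes. At 2000 to under 3000 tags it was 66.7% on X (12 of 18 peaks, 43.7 to 83.7) and 63.9% on autosomes. Only the X interval at 1500 to under 2000 tags left out the autosomal value. The mice were male, with 1 copy of X per cell, and the part of copy number in the number of RARβ calls on X was not tested. The whole of X had 52 RARβ peaks, and the median distance from its members to the nearest was 681 kb (498 to 785).

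**Figure D5:**
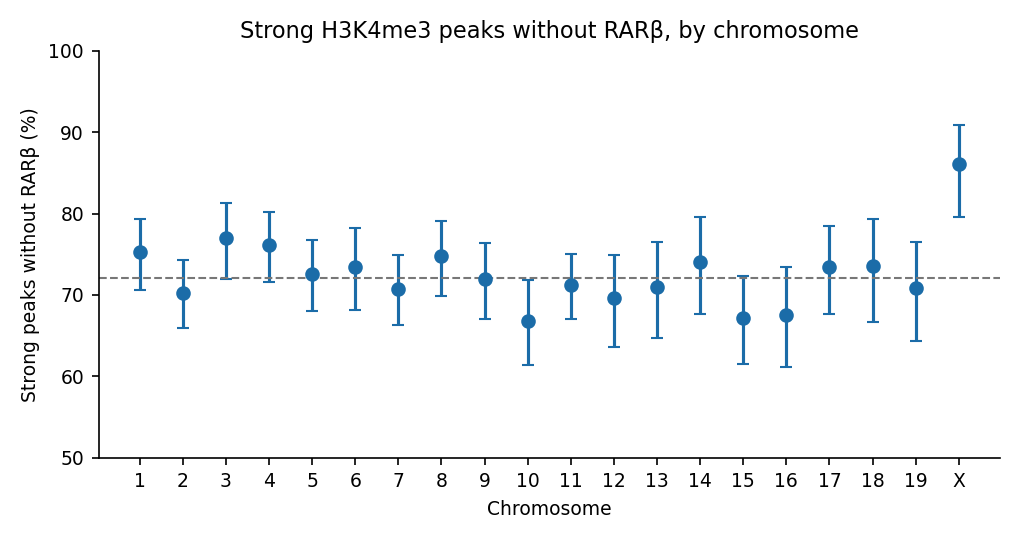
Share of strong H3K4me3 peaks without a RARβ peak (vertical axis, percent, starting at 50) on each chromosome, with Wilson 95% intervals; the dashed line is the autosomal share of 72.0%. The autosomes lie between 66.8% and 76.9%, and X stands above them at 86.1%.

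Along the chromosomes, members and RARβ-holding peaks were interspersed. The next strong peak lacked RARβ after 72.3% of the members and after 72.4% of the RARβ-holding peaks. Members formed 1239 uninterrupted runs with a median of 2 peaks, and 66 runs of 10 or more held 849 members (19.2%). The longest was on chromosome 11 from 109331569 to 115886297, where 28 strong peaks in a row lacked RARβ. This stretch still held 15 RARβ peaks, 9 of them in H3K4me3 peaks outside the limits. The second, on chromosome 5 from 139855558 to 145310115, had 23 members in a row and 20 RARβ peaks between them. On X, a run of 18 from 133525897 to 152061330 spanned 18.5 Mb with 3 RARβ peaks, and one of 17 from 56385276 to 71332137 spanned 14.9 Mb with 2. Runs of similar length thus held few RARβ peaks on X and many on autosomes.

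In windows of 10 Mb with at least 20 strong peaks, the median share without RARβ was 72.0% over 128 windows, with quartiles of 65.8% and 78.6%. It was highest at 140 to 150 Mb of chromosome 6 with 19 of 20 peaks, and next at 110 to 120 Mb of chromosome 11 with 45 of 49 (91.8%, 80.8 to 96.8). The lowest shares were 48.3% at 100 to 110 Mb of chromosome 15 (14 of 29 peaks, 31.4 to 65.6) and 51.6% at 90 to 100 Mb of chromosome 16. These extremes were picked from all windows and are given as values.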

How the data were processed

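The members, lists and limits were chosen with earlier results of these data known. The submitters' processing notes name CASAVA 1.8.2, Bowtie and build mm9. The authors used MACS 1.4.2 to call peaks per library against 1 control, at a p cutoff of 1e-05, keeping at most 1 tag per position, per the file headers. This caps the tags of dense peaks. The RARβ library lost 55% of its tags and the H3K4me3 library 21% in this way.

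The deposited tag counts per peak are whole numbers without normalization. The deposited fold enrichment is a ratio to the local background, the deposited score is −10 times log10 of the p-value, recognised from the MACS column order because its name was lost, and the FDR was deposited in percent.

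Peaks sharing at least 1 bp were counted as overlapping. Distances run from edge to edge, but the H3K4me3 peaks within 50 kb were counted from centre to centre. Weighted medians of matched peaks have intervals by their effective number. The named peaks were the 10 members with the most tags, the 10 farthest from and the 10 nearest to RARβ, the counterparts of the first 5, and 2 peaks on either side of each limit. Overlaps and distances planted in simulated data were recovered. The match was also run on simulated peaks, whose fold rose with tags and fell with width. In the members fold was almost unrelated to tags, so that run does not cover the match as used here. Comparisons of genes, CpG content and sequence were planned but not run, since a genome of build mm9 was not used here. Python 3.11.15, numpy 2.4.6, pandas 2.3.3, scipy 1.17.1 and matplotlib 3.10.9 were used.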

Additional observations from a re-analysis of the deposited data

How the results depend on the processing

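Over 9 settings, 135 values of 24 results were recomputed, of which 107 stayed within the 95% interval of the value reported and 28 did not. The 107 do not measure stability, because several settings could change little or nothing. The share of strong peaks without RARβ was 72.36% as reported, 72.38% with RARβ peaks at an FDR of at most 5% and 72.41% with the RARβ summit inside. Restriction to autosomes cannot change the autosomal share. Counting only RARβ peaks of 10 or more tags moved every share without RARβ, the distances to RARβ and the median folds out of their intervals. All settings were planned; the single classes of width and tags and the split by RARβ tags were added after the values were seen. With a minimum of 1500 H3K4me3 tags, 68.2% of the strong peaks lacked RARβ. With RARβ peaks of 10 or more tags the share was 82.2%, that on X 96.5%, the median distance 143 kb, and the median H3K4me3 fold 27.31 in members and 27.70 in matched peaks. Members grow in number there by construction. The depth of the RARβ library limits the list, because sites under 7 tags were not called. No pairing of libraries was possible because each antibody had 1 library.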
